A study of Mus musculus with 8 samples.

Results

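The comparison set MLP-29 cells given hepatocyte growth factor (HGF) for 1 h against MLP-29 cells kept in control medium, 2 arrays against 2 of the 8 arrays in the series. MLP-29 is a single established line of mouse liver progenitor cells, grown in DMEM with bovine serum. All groups, the controls included, were starved stepwise over 1 week before recombinant HGF or control medium was added, with bovine serum kept at 2%. The other groups received HGF for 6 and 24 h, every culture was lysed at the same moment, and the whole course was carried out 2 times, which gave replicates a and b. No control was sampled at 1 h, so effects of handling when the medium was added cannot be told apart from those of HGF. Biotin-labelled RNA was read on 1-colour Illumina Mouse8_V2 bead arrays. A gene was described where its probe had a detection p under 0.05, against the negative control beads, on both control arrays or on both 1 h arrays, and 7967 of the 8183 genes tested over the series met this rule.

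HGF is the ligand of Met, a receptor tyrosine kinase. Ligand binding makes Met phosphorylate itself and recruit adaptors such as Grb2 and Gab1, which start the Ras and ERK and the phosphoinositide 3-kinase pathways. Factors already present in the cell, among them serum response factor, CREB and NF-kB, are then modified and start transcription of the immediate early genes without new protein synthesis. The products of these genes include transcription factors that act on later targets, secreted ligands, and phosphatases and mRNA decay factors that end the signal. In liver, HGF is known as a mitogen of hepatocytes and as scatter factor, which makes epithelial cells separate and move. The question here was which transcripts had moved by the earliest time measured.

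The cell type label was set against marker genes on the 4 arrays compared. Of 11 cholangiocyte and progenitor markers with a probe, 7 were detected on all 4 arrays, among them the duct keratins Krt7 and Krt19 and the duct regulator Sox9, and 4 (Onecut1, Cftr, Prom1 and Foxl1) on none. Of 17 hepatocyte markers, Hnf4a alone was detected on all 4, and 14, albumin among them, on none. No haematopoietic (of 9), endothelial (of 9) or stellate (of 10) marker was detected on all 4 arrays, and 7, 7 and 9 of them on none. Hgf itself was detected on 0 of 4. Over the whole series 45.0% to 46.3% of the 25697 probes were detected per array. Across genes, replicates correlated at 0.990 or more, and control with 1 h arrays at 0.971 to 0.978. The median absolute difference between replicates a and b was 0.18 in control and 0.17 at 1 h on the log2 scale.

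Levels below are log2 normalized signals, given for replicate a and then replicate b. Changes are 1 h minus control as log2 fold change ± SE from limma, fitted to the whole series with n = 2 in each group, so the p-values rest on the spread between the 2 repeats. Calls were made where the Benjamini-Hochberg adjusted p over all 8183 genes was under 0.05. After 1 h of HGF, 213 genes were called higher (2.67% of the genes described) and 177 lower (2.22%), or 4.9% in either direction. The rises reached further than the falls. Among called genes measured in both groups, 34 rose and 2 fell by at least 4-fold, and 15 rose and 0 fell by at least 8-fold. Of the called genes undetected in 1 group, which have only a bound, 3 were at least 8-fold higher, and 0 of those that fell had a bound of 4-fold. The median over all genes described was -0.05, that of the genes called higher 1.08 and that of the genes called lower -0.88. In none of the 390 called genes did the control and 1 h arrays overlap. Over all genes described, both 1 h arrays lay above both controls in 1547 and below both in 2408. A fit that took the replicate letters as blocks called 366 higher and 363 lower and kept all 390 calls.

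The counts changed when single arrays were left out. Each such fit leaves 1 array in a group, so a lost call does not show that the array left out had made it. Without control replicate a, 73 genes were higher and 6 lower. Without control replicate b there were 97 lower, without HGF 1 h replicate a 107 higher and 46 lower, and without HGF 1 h replicate b 95 higher and 11 lower. Without either of the 24 h arrays, which enter the pooled spread, 104 were lower. The call held under every alternative tried for 66 of the genes that rose and for 2 of those that fell, Edn1 and Pde4b.

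**Figure D1:**
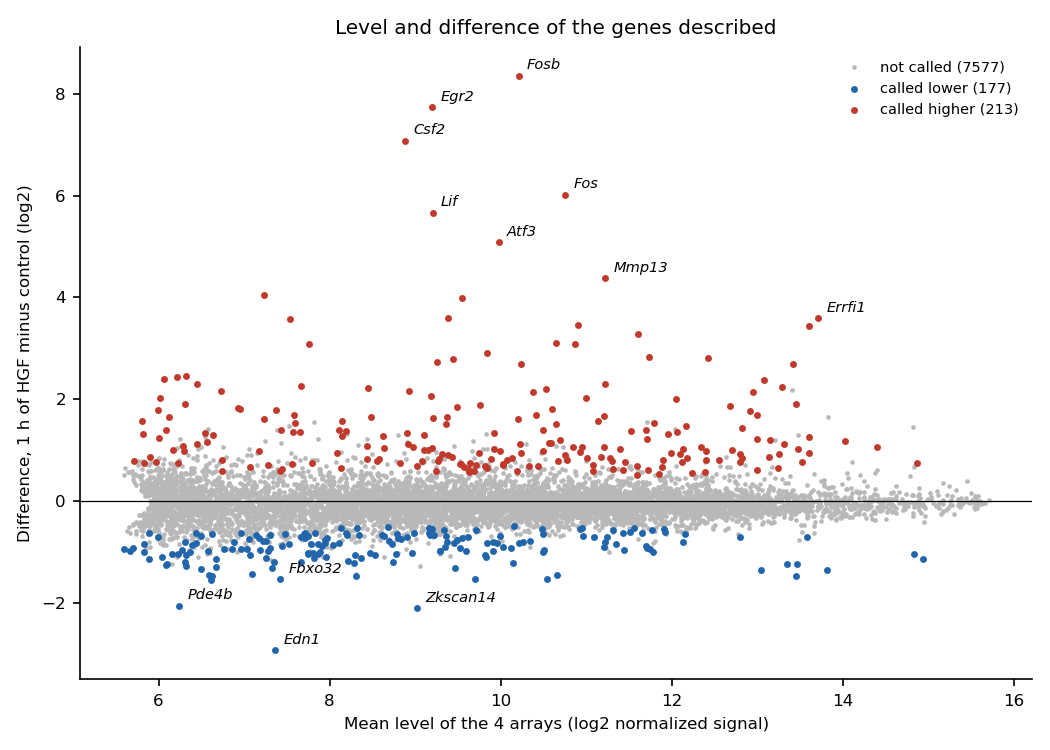
Each point is 1 of the 7967 genes described, with its mean log2 signal over the 4 arrays on the horizontal axis and its log2 difference, 1 h of HGF minus control, on the vertical axis. Red points are the 213 genes called higher and blue points the 177 called lower, and the rises extend to 8.36 while the falls end at -2.94.

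AP-1 is a family of dimeric bZIP factors made of Fos and Jun proteins. Of 19 genes of AP-1 and related bZIP factors on the array, 15 were measured, 8 rose and 0 fell, and their median difference was 1.67. Fosb read 5.50 and 6.56 in control and 14.51 and 14.27 at 1 h. Fos read 8.14 and 7.34 in control and 13.60 and 13.93 at 1 h. For each gene both 1 h arrays lay far above both controls, and Fosb passed the detection limit on only 1 of the 2 control arrays. Fosb rose by 8.36 ± 0.30 (adjusted p = 1.24e-05), the largest difference among all genes described, and Fos by 6.02 ± 0.44 (adjusted p = 0.000549). Atf3, a stress-inducible factor that often represses its targets, read 6.74 and 8.12 in control and 12.52 on both 1 h arrays, a rise of 5.09 ± 0.48 (adjusted p = 0.00143). The controls of Atf3 were spread by over 1 log2 unit and the 1 h arrays hardly at all.

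The other members that rose did so by less. Jun, the partner of Fos in AP-1, went from 6.20 and 6.24 to 8.92 and 9.70 (3.09 ± 0.29, adjusted p = 0.00142). Fosl1, a Fos relative known from invasive epithelial cells, went from 8.14 and 7.95 to 10.97 and 10.70 (2.79 ± 0.21, adjusted p = 0.00056). Junb, which can oppose Jun, went from 12.02 and 11.47 to 13.38 and 13.87 (1.88 ± 0.23). Maff, a small Maf protein without an activation domain, rose by 1.89 ± 0.23, and Nfil3, a repressor with a link to the circadian clock, by 1.67 ± 0.22. Jund gave 0.55 ± 0.21 (adjusted p = 0.204) and was not called; with the replicate block its adjusted p was 0.0455. Leaving out control replicate a ended the calls of Maff (adjusted p = 0.0602) and Nfil3 (0.0711), and leaving out HGF 1 h replicate b that of Nfil3 (0.0561). The other 6 kept theirs under every alternative.

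**Figure D2:**
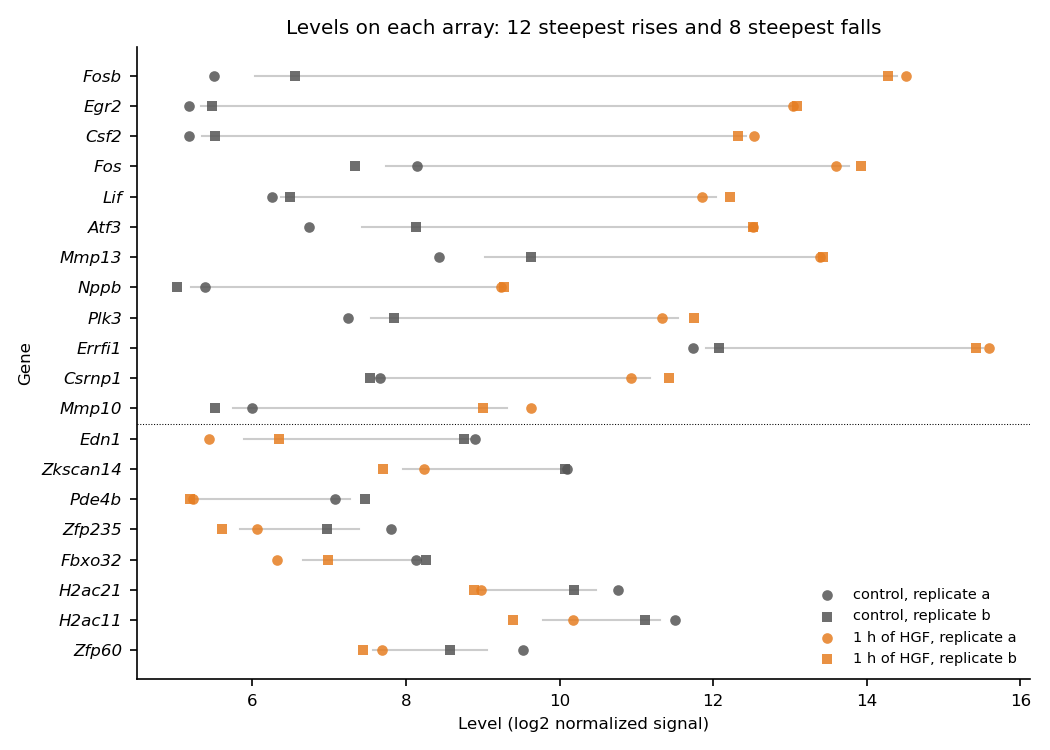
Log2 normalized signal of each of the 4 arrays for the 12 genes that rose most and the 8 that fell most, 1 gene per line, with grey symbols for control, orange for 1 h of HGF, circles for replicate a and squares for replicate b. Grey lines join the group means. The genes were picked from called genes whose control and 1 h arrays did not overlap, so the gap between grey and orange symbols follows from that choice.

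The zinc finger factors of the Egr family, which serum and growth factors induce through serum response factor, rose beside them. Egr2 was not above background on either control array (5.17 and 5.48) and read 13.03 and 13.10 at 1 h. It was at least 145-fold higher (adjusted p = 2.88e-07, the smallest of all genes described). A bound is given in place of a fold wherever a gene was undetected in 1 group: the brighter group's mean is set against the dim group's mean of, on each array, the weakest signal of any detected probe, or the gene's value where that is higher. Egr1 was well above background before HGF, at 11.69 and 12.07, and read 15.29 and 15.35 at 1 h (3.44 ± 0.22, adjusted p = 0.000242). Nr4a2, an orphan nuclear receptor of the early response, went from 7.83 and 7.86 to 10.06 and 9.95 (2.16 ± 0.17, adjusted p = 0.000622). Srf, the gene of serum response factor itself, moved from 10.61 and 10.75 to 11.95 and 11.53 (1.06 ± 0.17, adjusted p = 0.0138). In all, 4 of the 7 measured genes of this list rose and 0 fell. The Srf call was lost with median scaling of the arrays (adjusted p = 0.0771), without control replicate a (0.104) and without HGF 1 h replicate a (0.0638), and those of Egr1, Egr2 and Nr4a2 were kept throughout.

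The promoters of the 4 steepest of these factors are shown, chosen by size of change. The motifs marked are those of factors that growth factor signals are known to reach. Each line gives the 250 bases before the gene's RefSeq start in GRCm38.p6, 5′ to 3′ along the gene. Capitals mark a CArG box, the site of serum response factor, or the short motif TGACG of the cAMP response element, the site of CREB and ATF proteins (CGTCA where it lies on the other strand).
Fosb, chr7:19310046-19310295, minus strand: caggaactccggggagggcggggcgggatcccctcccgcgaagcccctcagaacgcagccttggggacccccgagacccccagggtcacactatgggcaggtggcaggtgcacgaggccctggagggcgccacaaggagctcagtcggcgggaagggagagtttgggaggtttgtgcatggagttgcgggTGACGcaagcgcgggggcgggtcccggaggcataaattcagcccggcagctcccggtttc
Egr2, chr10:67537619-67537868, plus strand: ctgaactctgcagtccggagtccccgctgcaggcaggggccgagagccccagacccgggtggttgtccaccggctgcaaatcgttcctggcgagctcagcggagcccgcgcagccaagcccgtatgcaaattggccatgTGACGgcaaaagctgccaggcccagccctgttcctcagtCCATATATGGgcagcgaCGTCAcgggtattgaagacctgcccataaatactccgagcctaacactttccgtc
Fos, chr12:85473640-85473889, plus strand: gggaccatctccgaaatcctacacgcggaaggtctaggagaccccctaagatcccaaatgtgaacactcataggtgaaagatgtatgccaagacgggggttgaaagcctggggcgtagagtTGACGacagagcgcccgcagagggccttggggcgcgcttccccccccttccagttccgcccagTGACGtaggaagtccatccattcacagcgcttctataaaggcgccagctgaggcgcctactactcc
Atf3, chr1:191183334-191183583, minus strand: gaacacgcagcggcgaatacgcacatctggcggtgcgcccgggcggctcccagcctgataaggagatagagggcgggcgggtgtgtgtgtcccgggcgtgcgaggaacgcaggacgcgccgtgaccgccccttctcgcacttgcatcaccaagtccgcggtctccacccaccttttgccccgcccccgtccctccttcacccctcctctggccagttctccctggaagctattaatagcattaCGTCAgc

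The Egr2 promoter shown was picked, from the 5 that RefSeq lists for the gene, for its marked motifs, with CArG boxes weighted most. In it a CArG box began 72 bases before the start, with TGACG motifs 111 and 55 bases before it. Fos had TGACG 129 and 66 bases before its start, Fosb 60 and Atf3 7. Of the 213 genes that rose, 177 had a promoter in the table (244 promoters), as had 140 of the 177 that fell (174) and 6551 of all genes described (8451). In windows from 250 bases before to 50 after the start, searched on both strands, the full cAMP response element TGACGTCA stood in 6.56% of the promoters of genes that rose, 2.87% of those that fell, 3.09% of all described and 1.79% of all 32851 promoters in the table. TGACG, which lies inside TGACGTCA, stood in 39.8%, 28.7%, 31.7% and 20.8%, and the CArG box in 3.69%, 2.30%, 1.37% and 1.63%. The 5 genes that rose and held a CArG box there were Egr2, Fhl2, Hpx, Srf and Zfp36. The AP-1 site TGACTCA stood in 7.79%, 4.02%, 4.05% and 5.20%, and the E-box CACGTG in 9.43%, 4.60%, 10.1% and 7.15%. An NF-kB site stood in 13.9%, 8.62%, 10.6% and 8.46%. All these shares are per promoter, and some genes have several. Counted per gene in the same order, the CArG box stood in 2.82%, 2.86%, 1.66% and 1.81%. TGACGTCA then stood in 9.04%, 3.57%, 3.68% and 2.03%, and TGACG in 48.0%, 33.6%, 36.7% and 23.0%. These are matches of letters and were not tested, and a motif beyond the window was not looked for.

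Among 10 measured Kruppel-like factors, 1 was called higher, Klf9, and 0 lower; with the replicate block these counts were 4 and 1. Klf4 read 11.78 and 12.01 in control and 11.54 and 11.81 at 1 h (-0.22 ± 0.15, adjusted p = 0.486). A broader list of early response regulators held 30 measured genes, of which 14 rose and 0 fell (median 0.88). Plk3, a polo-like kinase of stress responses, went from 7.25 and 7.85 to 11.33 and 11.75 (3.99 ± 0.33, adjusted p = 0.000791). Csrnp1, a nuclear factor first known from axin signalling, went from 7.66 and 7.53 to 10.94 and 11.42 (3.59 ± 0.18, adjusted p = 6.75e-05). In neither did the groups come near each other. Phlda1, a pleckstrin domain protein, rose by 2.82 ± 0.12, Ier3, a regulator of survival, by 2.69 ± 0.21, Runx1 by 1.36 ± 0.12 and the liver-enriched factor Cebpb by 1.18 ± 0.12. Mcl1, an anti-apoptotic Bcl2 relative, rose by 0.93 ± 0.12, and Sertad1, a cyclin D and CDK4 partner, by 1.06 ± 0.13.

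In that list 6 genes were called without control replicate a and 7 without HGF 1 h replicate b; the calls of Mcl1 (adjusted p = 0.055 and 0.0524) and Sertad1 (0.0505 and 0.0524) were among those lost. The Klf9 call ended with median scaling (adjusted p = 0.0619), with the 4 compared arrays alone (0.0918), without a detection filter (0.066), without control replicate a (0.15) and without any HGF array (0.0624 to 0.161). Not called in the same list were Gadd45a (-0.04 ± 0.32), Gadd45b (0.80 ± 0.21, adjusted p = 0.0808), the helix-loop-helix inhibitors Id1 (0.58 ± 0.31), Id2 (0.35 ± 0.26) and Id3 (0.24 ± 0.31), and the Notch target Hes1 (-0.35 ± 0.23).

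Myc, a driver of growth and proliferation, read 7.24 and 7.60 in control and 8.70 and 8.91 at 1 h (1.39 ± 0.22, adjusted p = 0.0158). In the list of Myc partners, Pim kinases and targets, 3 of 15 measured genes rose and 0 fell, with a median of -0.08. Pim3, a survival kinase, rose by 0.91 ± 0.16, and Odc1, the rate-limiting enzyme of polyamine synthesis and a Myc target, was the last of the 3. The Myc call was lost without control replicate a (adjusted p = 0.11), HGF 1 h replicate a (0.0579) or HGF 1 h replicate b (0.0951). That of Pim3 was lost in the fit of the 4 arrays alone (0.0612) and without control replicate a (0.0637), control replicate b (0.0838) or HGF 1 h replicate b (0.119), and that of Odc1 without any of the arrays of control, 1 h and 24 h (0.05 to 0.149), with median scaling (0.0704) and in the 4 arrays alone (0.0815).

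Several genes that end signals rose at the same time. Zfp36 encodes tristetraprolin, which binds AU-rich elements and speeds the decay of early mRNAs. It read 9.57 and 9.07 in control and 12.22 and 12.60 at 1 h, a rise of 3.09 ± 0.24 (adjusted p = 0.000596). The antiproliferative deadenylase adaptor Tob1 rose by 1.32 ± 0.12, and Zc3h12a, an endonuclease that cleaves cytokine mRNAs, by 1.69 ± 0.25. They were the 3 that rose among 14 measured mRNA decay genes, of which 0 fell, and the paralogue Zfp36l1 gave 0.56 ± 0.15 (adjusted p = 0.0811). Leaving out control replicate a ended the call of Zc3h12a (adjusted p = 0.0947), as did leaving out HGF 1 h replicate a (0.059) or b (0.0708).

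Of 14 measured dual specificity phosphatases, which remove phosphate from MAP kinases, 3 rose and 1 fell (6 and 1 with the replicate block). Dusp6, a phosphatase specific for ERK, read 11.61 and 12.17 in control and 14.16 and 14.37 at 1 h (2.38 ± 0.27, adjusted p = 0.00436). Dusp1, the nuclear phosphatase of the early response, went from 12.55 and 12.46 to 14.34 and 14.46 (1.90 ± 0.19, adjusted p = 0.00201). Dusp8, which acts on JNK and p38, rose by 1.65 ± 0.31, whereas Dusp10, with the same known substrates, fell by 0.92 on the log2 scale, from 10.11 and 9.87 to 9.03 and 9.11 (adjusted p = 0.0104). Dusp4 (1.32 ± 0.36, adjusted p = 0.0932) and Dusp16 (0.81 ± 0.21, adjusted p = 0.0746) were not called in the main fit. Both were called with the block (limma adjusted p = 0.00424 and 0.0174), in the authors' table (0.0384 and 0.0385) and without background correction (0.0391 and 0.0326). Dusp16 was also called with an offset of 50 (0.047). The calls of Dusp8 and Dusp10 ended without control replicate a (adjusted p = 0.133 and 0.0785), HGF 1 h replicate a (0.0597 and 0.0681) or HGF 1 h replicate b (0.141 and 0.0632), and that of Dusp8 with the 4 compared arrays alone (0.0518).

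Among 18 measured genes of ERK and receptor feedback, 2 rose and 0 fell (5 and 0 with the block). Errfi1, the gene of Mig6, which binds the EGF receptor family and blocks its kinase, read 11.74 and 12.07 in control and 15.60 and 15.42 at 1 h (3.60 ± 0.16, adjusted p = 2.8e-05). Etv3, an Ets family repressor, rose by 1.30 ± 0.18. Of the Sprouty and Etv feedback genes, Spry4 gave -0.17 ± 0.27 (adjusted p = 0.784) and Etv5 -0.09 ± 0.15 (adjusted p = 0.783), and Etv4 was undetected in both groups. Etv3 lost its call without control replicate a (adjusted p = 0.0541), HGF 1 h replicate a (0.0528) or HGF 1 h replicate b (0.0597), and Errfi1 kept it under every alternative.

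At the level of receptors and ligands, Met did not move with its ligand at this time: it read 8.32 and 7.68 in control and 8.19 and 7.72 at 1 h, and its groups overlapped (-0.04 ± 0.23, adjusted p = 0.946). Mst1r, the gene of Ron, the closest relative of Met and the receptor of macrophage stimulating protein, read 8.46 and 8.31 in control and 11.22 and 11.36 at 1 h. It rose by 2.90 ± 0.13 (adjusted p = 2.8e-05) and was the 1 gene called among 11 measured genes of the HGF and MST1 receptor system. In the EGF receptor family, 2 of 9 measured genes rose and 0 fell, and both were ligands. Hbegf, a membrane-anchored ligand released by proteolysis, went from 9.81 and 10.12 to 13.11 and 13.37 (3.28 ± 0.19, adjusted p = 0.000125). Ereg, epiregulin, was undetected in control (4.83 and 4.91) and read 7.45 and 7.08 at 1 h, at least 2.61-fold higher (adjusted p = 0.000209). Egfr, their receptor, gave 0.06 ± 0.23 (adjusted p = 0.917).

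Of 20 other growth factors and receptors measured, 4 rose and 0 fell (6 and 0 with the block). Pdgfb, a platelet-derived growth factor chain, went from 11.17 and 10.93 to 13.10 and 13.00 (2.00 ± 0.15, adjusted p = 0.00056). Epha2, a receptor tyrosine kinase for ephrin A ligands, went from 9.29 and 9.57 to 11.46 and 11.79 (2.20 ± 0.22, adjusted p = 0.00204). Bdnf, a neurotrophin, rose by 0.97 ± 0.14, and Pdgfa was the other. Vegfa read 12.24 and 12.98 in control and 13.61 and 14.00 at 1 h, without overlap, but its difference of 1.19 ± 0.31 was not called (adjusted p = 0.0775); it was with the block (adjusted p = 0.00345). Bdnf lost its call with median scaling (adjusted p = 0.0869) and without control replicate a (0.0791) or HGF 1 h replicate a (0.0694). Pdgfa lost it with median scaling (0.111), without a detection filter (0.0618), in the 4 arrays alone (0.0983) and without control replicate a (0.188) or any HGF array (0.0545 to 0.186). Mst1r, Hbegf, Ereg, Pdgfb and Epha2 kept theirs under every alternative.

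Cytokine genes were among the steepest rises of all. Csf2, which encodes GM-CSF, a growth factor of myeloid cells, was undetected in control (5.18 and 5.51) and read 12.53 and 12.32 at 1 h, at least 93.3-fold higher (adjusted p = 5.35e-05). Lif, a cytokine of the interleukin-6 family, was detected before HGF at 6.25 and 6.49 and read 11.86 and 12.22 at 1 h (5.67 ± 0.17, adjusted p = 6.79e-06). Tnf was undetected in control (5.28 and 4.90) and read 8.09 and 7.01 at 1 h, at least 3.17-fold higher (adjusted p = 0.00697), with the 1 h arrays spread by over 1 log2 unit. In all, 9 of 26 measured cytokines and Socs genes rose and 0 fell, with a median of 0.51.

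Other members of the interleukin-6 family and their inhibitor moved too. Il11 went from 5.79 and 6.24 to 7.81 and 7.88 (1.83 ± 0.26, adjusted p = 0.00878) and Clcf1 from 6.60 and 6.86 to 7.98 and 8.27 (1.39 ± 0.19, adjusted p = 0.00776). Socs3, which blocks the receptors of this family, went from 11.13 and 10.88 to 12.16 and 12.63 (1.39 ± 0.19, adjusted p = 0.00784). Csf1, the macrophage growth factor, rose by 1.51 ± 0.22. The remaining calls were Tnfsf9 and Csf3, which encodes G-CSF and was at least 2.59-fold higher (adjusted p = 0.0434). Csf2, Lif, Tnf and Socs3 kept their calls under every alternative. The calls of Il11 (adjusted p = 0.0758), Clcf1 (0.0711), Csf1 (0.0637) and Tnfsf9 (0.146) ended without control replicate a, and 4 genes of the list were called. Without HGF 1 h replicate b those of Il11 (0.0632), Clcf1 (0.0614), Csf1 (0.0659) and Tnfsf9 (0.167) ended, and without HGF 1 h replicate a those of Csf1 (0.0552) and Tnfsf9 (0.149), leaving 4 and 6. Csf3 lost its call without any of the 4 compared arrays (0.0771 to 0.208) and without a detection filter (0.0737). Tnfsf9 also fell short without control replicate b (0.142) or a 24 h array (0.0795), with median scaling (0.184), in the authors' table (0.0739), without background correction (0.0695), without a detection filter (0.0561) and in the 4 arrays alone (0.0755).

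Of 15 measured chemokines, prostaglandin enzymes and adhesion molecules, 3 rose and 0 fell, and all 3 came from below background (8 and 1 with the block). Ptgs2, the inducible cyclooxygenase, read 5.24 and 5.36 in control and 7.73 and 7.47 at 1 h, at least 3.29-fold higher (adjusted p = 0.000125). Cxcl2, a neutrophil chemokine, went from 5.23 and 4.96 to 6.94 and 6.83, at least 2.00-fold (adjusted p = 0.000549), and Cxcl10 was at least 1.51-fold higher (adjusted p = 0.022). Cxcl1, also a neutrophil chemokine, was bright before HGF, at 13.96 and 14.23, and read 15.52 and 15.56 at 1 h, without overlap. Its difference of 1.45 ± 0.36 was not called in the main fit (limma adjusted p = 0.0696). It was called with the block (0.0175), median scaling (0.0441), the authors' table (0.0234) and no background correction (0.0266). An offset of 50 (0.0409) and the 4 arrays alone (0.01) called it too. Icam1 read 10.83 and 10.50 in control and 10.33 and 10.02 at 1 h (-0.49 ± 0.18, adjusted p = 0.196, and 0.0376 with the block). Cxcl10 lost its call in the 4 arrays alone (0.0596), without control replicate a (0.116) or b (0.0871) and without HGF 1 h replicate a (0.0528).

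NF-kB is held in the cytoplasm by inhibitors of the IkB family, whose genes are themselves NF-kB targets. Of 26 measured subunits and feedback genes 7 rose and 0 fell, with a median of 0.60 (12 and 1 with the block). Tnfaip3, the gene of the ubiquitin editing enzyme A20, read 10.07 and 10.58 in control and 13.31 and 12.98 at 1 h (2.82 ± 0.22, adjusted p = 0.00056). Nfkbia, the gene of the inhibitor IkB alpha, went from 10.64 and 11.03 to 12.30 and 12.14 (1.38 ± 0.18, adjusted p = 0.00772). Rel, a subunit best known from lymphocytes, was dim in control, at 5.89 and 6.21, and read 7.92 and 7.80 at 1 h (1.81 ± 0.23, adjusted p = 0.00638). Bcl3, a nuclear IkB protein, Map3k8, the kinase Tpl2, Tnfaip2 and Nfkbid made up the 7. The subunits Rela (0.53 ± 0.12, adjusted p = 0.0588) and Relb (0.61 ± 0.19, adjusted p = 0.122) were not called, though Rela was with the block (adjusted p = 0.0396), and Nfkb2 gave -0.19 ± 0.19.

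Most of these NF-kB calls were lost when 1 of the compared arrays was left out, which leaves 1 array in its group. Tnfaip3 was the 1 gene called without control replicate a, since Nfkbia (adjusted p = 0.062), Rel (0.0611), Map3k8 (0.0758), Bcl3 (0.0919), Tnfaip2 (0.109) and Nfkbid (0.106) were lost. Without control replicate b, 3 were called, without HGF 1 h replicate a 2, and without HGF 1 h replicate b 4. Nfkbia was lost without HGF 1 h replicate a too (0.0515). Bcl3 was lost without control replicate b (0.106) and HGF 1 h replicate a (0.0981), with median scaling (0.116) and in the 4 arrays alone (0.0714). Map3k8, Tnfaip2 and Nfkbid were lost without control replicate b (0.0636 to 0.131) or either 1 h array (0.0538 to 0.148), and Nfkbid under 9 further alternatives (0.0561 to 0.105).

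Matrix metalloproteinases are secreted enzymes that cut collagens and other matrix proteins. Of 13 measured genes of this list 4 rose and 0 fell. Mmp13, a collagenase, read 8.44 and 9.62 in control and 13.39 and 13.43 at 1 h (4.38 ± 0.69, adjusted p = 0.014). The stromelysins Mmp10 (from 5.99 and 5.51 to 9.63 and 9.01; 3.57 ± 0.28, adjusted p = 0.000572) and Mmp3 (from 7.95 and 7.83 to 10.79 and 10.46; 2.74 ± 0.20, adjusted p = 0.00056) moved too. Adamts4, an aggrecan-cleaving protease, was undetected in control and was at least 1.68-fold higher at 1 h (adjusted p = 0.00776). Timp1, their inhibitor, gave 0.34 ± 0.14 (adjusted p = 0.23). In the plasminogen list 2 of 11 measured genes rose and 0 fell: Plaur, the urokinase receptor, from 11.03 and 11.02 to 12.68 and 12.42 (1.52 ± 0.14, adjusted p = 0.00137), and the cathepsin gene Ctsl (0.95 ± 0.12, adjusted p = 0.0065). Mmp10, Mmp3 and Plaur kept their calls throughout. Those of Mmp13, Adamts4 and Ctsl were lost without control replicate a (adjusted p = 0.109, 0.0611 and 0.0509) and HGF 1 h replicate b (0.0797, 0.0524 and 0.0538), and those of Mmp13 and Adamts4 without HGF 1 h replicate a (0.0703 and 0.0512).

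Genes of the cytoskeleton and of adhesion were called in small numbers. Called higher were 11.1% of SRF, YAP and actin targets and 6.9% of junction and mesenchymal transition genes, against 2.67% of all genes described. Among integrin and focal adhesion genes and among matrix genes the share was 0%. Among 27 measured targets of SRF, YAP and actin signalling 3 rose and 0 fell (5 and 1 with the block). Ccn1, a secreted matricellular protein, went from 9.17 and 9.19 to 12.57 and 12.70 (3.46 ± 0.12, adjusted p = 1.24e-05), while its relative Ccn2 gave 0.04 ± 0.18 (adjusted p = 0.937). Ankrd1, a nuclear ankyrin repeat protein, went from 13.88 and 13.85 to 14.95 and 14.89 (1.05 ± 0.11, adjusted p = 0.00302), and Fhl2, a LIM domain coactivator, rose by 1.01 ± 0.17.

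Of 29 measured genes of epithelial junctions and mesenchymal transition 2 rose and 0 fell. Snai1, a repressor of E-cadherin, was undetected in control (5.82 and 5.81) and read 6.54 and 7.04 at 1 h, at least 1.87-fold higher (adjusted p = 0.0271), and Grhl1, an epithelial grainyhead factor, rose by 1.33 ± 0.19. Cdh1, E-cadherin itself, read 12.43 and 12.57 in control and 12.60 and 12.55 at 1 h (0.07 ± 0.12, adjusted p = 0.784). In the TGF-beta and BMP list the inhibitors Skil (1.01 ± 0.13) and Smad6 (0.78 ± 0.12) were the 2 that rose of 23, and 0 fell. Of 23 integrin and focal adhesion genes 0 rose and 1 fell, Itgb7 (-0.97 ± 0.16, adjusted p = 0.0179; 2 and 1 with the block), and of 16 matrix genes 0 were called in limma (1 and 1 with the block, 2 and 1 at an unadjusted p under 0.05). In the Wnt and Notch list 0 rose and 1 fell of 19, the receptor Fzd7 (-0.77 ± 0.14; 1 and 3 called with the block).

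In these lists the calls of Ccn1 and Ankrd1 were kept under every alternative. Those of Fhl2, Snai1, Grhl1, Skil, Smad6, Itgb7 and Fzd7 were lost without control replicate a (adjusted p = 0.0637 to 0.155), and without control replicate b the same except Skil (0.0515 to 0.0954). HGF 1 h replicate a was needed for Fhl2, Itgb7 and Fzd7 (0.0782 to 0.119), and HGF 1 h replicate b for Snai1, Smad6 and Fzd7 (0.0968 to 0.119). Median scaling ended the calls of Fhl2, Smad6 and Fzd7 (0.0582 to 0.09), and the 4 arrays alone those of Fhl2, Snai1, Smad6, Itgb7 and Fzd7 (0.0507 to 0.0675).

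Of 21 measured genes of cyclic AMP, G protein and vasoactive signals, 1 rose, 3 fell and 17 were not called. Edn1, the peptide endothelin 1, read 8.90 and 8.76 in control and 5.44 and 6.34 at 1 h, where 1 of the 2 arrays was still above background. It fell by 2.94 on the log2 scale (SE 0.29, adjusted p = 0.0017), the largest fall of all genes described. Pde4b, a phosphodiesterase that degrades cyclic AMP, read 7.08 and 7.46 in control and was undetected at 1 h (5.23 and 5.19), at least 2.72-fold lower (adjusted p = 0.00056). Lpar6, a lysophosphatidic acid receptor, went from 11.60 and 11.17 to 9.94 and 9.90 (-1.46 ± 0.21, adjusted p = 0.00917). Nppb, the B-type natriuretic peptide, was undetected in control (5.38 and 5.02) and read 9.24 and 9.28 at 1 h, at least 10.4-fold higher (adjusted p = 0.000648). Lpar6 lost its call without control replicate a (adjusted p = 0.0711), HGF 1 h replicate a (0.0515) or HGF 1 h replicate b (0.0635). The other 3 kept theirs.

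**Figure D3:**
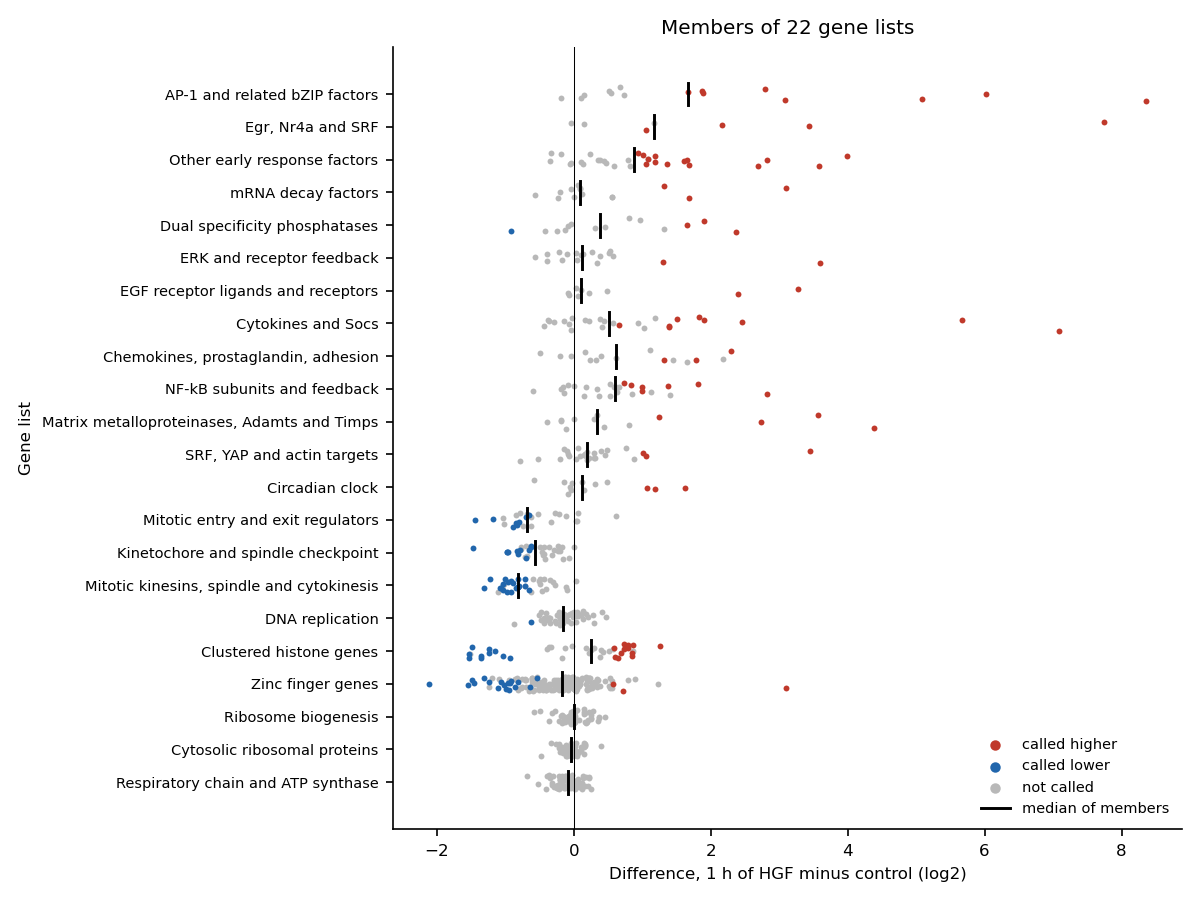
Log2 difference, 1 h of HGF minus control, of every measured member of 22 gene lists, with red points called higher, blue points called lower, grey points not called and a black bar at each list's median. The bars of the AP-1 and Egr lists stand at 1.67 and 1.18 and those of the 3 mitosis lists at -0.68, -0.57 and -0.81.

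In each of 3 lists of mitosis genes some members fell and 0 rose, and without control replicate a 0 were called in any of them. Mitotic entry is driven by Cdk1 with its cyclins and Cdc25 phosphatases, and 8 of 25 measured regulators of entry and exit fell and 0 rose (median -0.68; 15 and 0 with the block). Of 32 kinetochore and spindle checkpoint genes 11 fell and 0 rose (median -0.57), and of 38 kinesin, spindle and cytokinesis genes 20 fell and 0 rose (median -0.81). The shares that fell in the 3 lists were 32.0%, 34.4% and 52.6%, against 2.22% of all genes described. Most of the falls were under 2-fold. Cdk1 read 12.50 and 12.46 in control and 11.87 and 11.78 at 1 h (-0.66 ± 0.11, adjusted p = 0.0194), and Cdc25c, its activating phosphatase, 8.99 and 8.63 in control and 7.63 on both 1 h arrays (-1.18 ± 0.18, adjusted p = 0.014). The entry kinase Plk1 gave -0.89 ± 0.19 and Foxm1, which drives transcription of late cell cycle genes, -0.82 ± 0.17. In these genes, as in every gene called lower, the 1 h arrays lay below both control arrays, here by small steps.

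The checkpoint kinase Ttk read 7.22 and 7.50 in control and 6.01 and 5.76 at 1 h (-1.47 ± 0.21, adjusted p = 0.0095). Aspm, which organises the spindle poles, went from 10.09 and 10.16 to 9.02 and 8.59 (-1.32 ± 0.20, adjusted p = 0.0109). The checkpoint gene Bub1b gave -0.98 ± 0.15, Ska2, a kinetochore subunit, -0.98 ± 0.13, and the motor genes Kif18b and Kif11 -1.06 ± 0.15 and -1.03 ± 0.16. Of 54 measured DNA replication genes 1 fell, Dbf4 (-0.62 ± 0.11), the activator of the Cdc7 kinase, and 0 rose, with a median of -0.16. Top2a gave -0.35 ± 0.20 (adjusted p = 0.392) and Ccna2 -0.84 ± 0.24 (adjusted p = 0.108). Whether the replication and mitosis genes differ in their change was not tested.

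The mitosis calls rested on both repeats. In each of the 3 mitosis lists 0 genes were called without control replicate a, and the adjusted p of those named ran from 0.055 to 0.197. Without HGF 1 h replicate b the lists held 0, 1 and 0 called genes, without HGF 1 h replicate a 0, 2 and 2, and without control replicate b 7, 6 and 15. With the 4 compared arrays alone 2, 5 and 6 were called, with median scaling 6, 6 and 15, without a detection filter 4, 9 and 16, and without a 24 h array 5, 7 and 14. None of the mitosis genes named here changed sign under any alternative. Dbf4 was lost without any control, 1 h or 24 h array (adjusted p = 0.051 to 0.116), with median scaling (0.0705) and in the 4 arrays alone (0.0865).

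Clustered histone genes were called in both directions. Their mRNAs are made in S phase and, for canonical histones, end in a stem loop in place of a poly(A) tail. The copies within a class are close to identical, so which copy a probe measured is uncertain. Of 39 measured genes, 12 rose and 10 fell. In the H2A class 9 of 12 fell and 1 rose (median -1.24), in H2B 5 of 10 rose and 0 fell (median 0.71), in H4 4 of 9 rose and 1 fell (median 0.58) and in H3 1 of 7 rose and 0 fell (median 0.22). The linker histone gene H1f2 read 13.19 and 12.77 in control and 14.01 and 14.47 at 1 h (1.26 ± 0.22, adjusted p = 0.0226).

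For H2ac22 the levels were 14.34 and 14.05 in control and 12.96 and 12.46 at 1 h (-1.48 ± 0.22, adjusted p = 0.0101). H2ac21 went from 10.76 and 10.18 to 8.98 and 8.88 (-1.54 ± 0.24, adjusted p = 0.0129) and H2ac24 from 15.64 and 15.37 to 14.56 and 14.15 (-1.15 ± 0.19, adjusted p = 0.0165). H2bc7, in contrast, went from 10.80 and 10.90 to 11.61 and 11.79 (0.85 ± 0.14, adjusted p = 0.0166), and H4c6 from 9.62 and 9.80 to 10.65 and 10.47 (0.85 ± 0.16, adjusted p = 0.028). The 3 named H2A probes read lower on both 1 h arrays than in control, and those of H2bc7 and H4c6 higher on both. Such a separation holds for every called gene.

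These histone calls depended on the processing. Median scaling kept 10 falls and 1 of the 12 rises (adjusted p = 0.0717 for H2bc7 and 0.159 for H4c6), and the 4 arrays alone 2 rises and 5 falls. With control replicate a or HGF 1 h replicate b left out, 0 rose and 0 fell. Without control replicate b, 2 rose and 7 fell, without HGF 1 h replicate a 1 and 8, and without either a 6 h or a 24 h array 8 and 7 or 5 and 10. Of the named ones, H2ac21, H2ac22, H2ac24, H2bc7, H4c6 and H1f2 had adjusted p from 0.0653 to 0.162 without control replicate a, from 0.0632 to 0.12 without HGF 1 h replicate b, and H2ac21, H2bc7 and H4c6 from 0.0519 to 0.133 without HGF 1 h replicate a. H2bc7, H4c6 and H1f2 were lost without control replicate b (0.0535 to 0.0954).

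**Figure D4:**
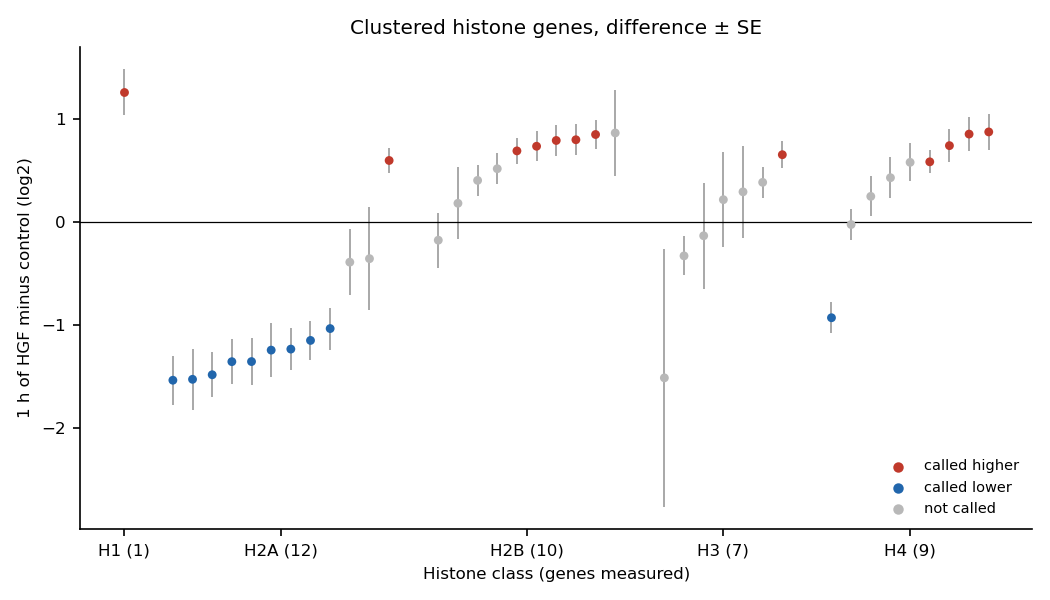
Log2 difference, 1 h of HGF minus control, ± SE for each of 39 measured clustered histone genes, grouped by class and sorted by value, with called genes in colour. The H2A genes lie mostly between -1.54 and -1.04 and the called H2B and H4 genes, apart from 1 H4 gene at -0.93, between 0.58 and 0.87.

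Zinc finger genes, many of them KRAB repressors, form a large family. Of 193 measured genes with Zfp, Zkscan, Zscan, Zbtb or Zik symbols, 18 fell and 3 rose, 1 of the 3 being Zfp36, which is an RNA-binding protein and no member of that repressor family. The median was -0.17, and 60 genes lay above 0 and 133 below; over all genes described 3299 lay above and 4653 below. Zkscan14 read 10.09 and 10.07 in control and 8.24 and 7.70 at 1 h (-2.12 ± 0.26, adjusted p = 0.00618). Zfp94 went from 8.07 and 7.89 to 6.73 and 6.62 (-1.31 ± 0.19, adjusted p = 0.0104), Zbtb45 from 9.06 and 9.07 to 8.05 and 7.96 (-1.06 ± 0.13, adjusted p = 0.00629) and Zfp12 from 10.51 and 10.66 to 9.71 and 9.60 (-0.93 ± 0.12, adjusted p = 0.00725). In all of them, as in every called gene, the groups were apart on both repeats. With the block 39 fell and 6 rose.

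Without control replicate a, 1 zinc finger gene was called lower, and Zkscan14 (adjusted p = 0.0583), Zfp94 (0.087) and Zbtb45 (0.055) were lost. Without HGF 1 h replicate b 1 was called, and Zfp94 (0.0724), Zbtb45 (0.0524) and Zfp12 (0.0597) were lost. Without control replicate b 10 were called lower, without HGF 1 h replicate a 8, with Zfp94 at 0.0515, and without a 24 h array 11. Without a detection filter there were 10 and in the 4 arrays alone 9. Median scaling gave 14 lower and 1 higher.

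Cell cycle inhibitors and death regulators gave single calls in both directions. Over all genes described 2.67% were called higher and 2.22% lower. The shares were 4.0% and 4.0% in the G1 list and 5.0% and 10.0% among the p53 targets. They were 4.3% and 0% in the Bcl2 list and 0% and 8.0% in the FoxO-linked list. Cdkn1a, the gene of the Cdk inhibitor p21, went from 11.99 and 12.23 to 13.57 and 13.50 (1.43 ± 0.13, adjusted p = 0.00139), and Ccng2, a cyclin of quiescent cells, from 7.68 and 7.96 to 6.91 and 6.47 (-1.13 ± 0.18, adjusted p = 0.014). They were the 2 calls among 25 G1 genes (2 higher and 1 lower with the block), where Ccnd1, cyclin D1, gave 0.06 ± 0.14 (adjusted p = 0.864). Among 20 other p53 targets Mdm2, the ubiquitin ligase of p53, rose (0.87 ± 0.13), and Sesn1 and Ppm1d fell (3 rose and 2 fell with the block). In the Bcl2 list 1 of 23 rose, the pro-apoptotic Bcl2l11 (0.90 ± 0.14), and 0 fell (3 and 1 with the block). Of 25 FoxO-linked and starvation genes 0 rose and 2 fell (1 and 4 with the block). Fbxo32, the ubiquitin ligase atrogin 1, went from 8.13 and 8.26 to 6.32 and 6.99 (-1.54 ± 0.20, adjusted p = 0.00758), and Sesn1, in this list too, gave -0.73 ± 0.13.

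Cdkn1a kept its call throughout. Ccng2, Mdm2, Sesn1, Ppm1d, Bcl2l11 and Fbxo32 lost theirs without control replicate a (adjusted p = 0.0587 to 0.187). Those of Ccng2, Sesn1, Ppm1d and Bcl2l11 ended without control replicate b (0.0616 to 0.0665), those of Mdm2, Sesn1 and Ppm1d without HGF 1 h replicate a (0.0671 to 0.15), and those of all but Fbxo32 without HGF 1 h replicate b (0.0724 to 0.129). Fbxo32 was lost with the mean of its probes (0.0907). Sesn1 and Ppm1d were lost with median scaling (0.0585 and 0.0876) and, with Ccng2, in the 4 arrays alone (0.0503 to 0.0862), and Ppm1d also with the mean of its probes (0.0532) and without a 6 h or 24 h array (0.0524 and 0.0593).

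In the circadian clock list 3 of 13 measured genes rose and 0 fell. Per1 and Per2, repressors of the clock whose transcription signals can induce directly, went from 8.31 and 8.48 to 9.95 and 10.09 (1.62 ± 0.23, adjusted p = 0.00874) and from 10.24 and 9.96 to 11.37 and 11.22 (1.19 ± 0.14, adjusted p = 0.00489). Nr1d1, the nuclear receptor Rev-erb alpha, went from 8.01 and 7.78 to 8.94 and 9.00 (1.07 ± 0.13, adjusted p = 0.00578). Per1 lost its call without control replicate a (adjusted p = 0.0785) or HGF 1 h replicate b (0.0655). Dnajb1, a cochaperone of Hsp70, was the 1 call among 17 cytosolic heat shock genes: its 2 control arrays read 12.02 and 12.04 and its 2 1 h arrays 13.79 each (1.76 ± 0.11, adjusted p = 0.000242).

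Metabolic genes were called one at a time. Of 22 glycolysis and hypoxia genes 2 rose and 0 fell (3 and 0 with the block): the glucose transporter Slc2a1, from 11.62 and 12.01 to 12.93 and 12.80 (1.05 ± 0.19, adjusted p = 0.0226), and hexokinase Hk2 (1.46 ± 0.30, adjusted p = 0.0372). Slc25a25, a mitochondrial carrier of ATP and magnesium, went from 8.48 and 8.62 to 10.27 and 10.12 (1.65 ± 0.15, adjusted p = 0.00143). With Slc2a1 it was among 3 of 150 solute carriers that rose, and 2 fell (7 and 3 with the block). In the main fit 2.0% of the solute carriers were called higher and 1.3% lower, against 2.67% and 2.22% of all genes described. Slc2a1 lost its call without control replicate a (adjusted p = 0.133), HGF 1 h replicate a (0.108) or HGF 1 h replicate b (0.0923). Elsewhere Angptl4, a secreted inhibitor of lipoprotein lipase, was the 1 of 22 fatty acid and lipid droplet genes that rose (0.80 ± 0.14), the metallothionein Mt2 rose (1.69 ± 0.30) and Gclm, a subunit of the enzyme that starts glutathione synthesis, gave -0.63 ± 0.11 and fell, the 2 calls among 25 antioxidant genes. Of 23 interferon-stimulated genes 0 rose and 1 fell, Stat2 (-0.64 ± 0.12; 1 and 2 with the block). Without control replicate a or b the calls of these 4 genes ended (0.0569 to 0.16), as did those of Angptl4, Gclm and Stat2 without either 1 h array (0.0695 to 0.127) or with median scaling (0.051 to 0.0883). The 4 arrays alone ended all 4 calls (0.0562 to 0.09), and leaving out a 24 h array those of Gclm (0.0531) and Stat2 (0.0549). Hk2 lost its call without a detection filter (0.0592) and without any array of control, 1 h or 6 h (0.0563 to 0.197).

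Large groups of housekeeping genes gave no call in limma. Of 56 cytosolic ribosomal protein genes 0 were called without or with the block, and 0 were higher and 1 lower at an unadjusted p under 0.05. Of 51 ribosome biogenesis genes 0 were called either way (3 higher and 4 lower at unadjusted p), as of 80 respiratory chain and ATP synthase genes (0 and 8) and 20 cholesterol synthesis genes (0 and 2). For 71 mitochondrial ribosomal protein genes and 33 proteasome genes there were 0 calls, 1 in each with the block, and 0 and 6 or 1 and 5 at unadjusted p. The medians of these lists lay between -0.086 and -0.004. Of 21 ER chaperone genes, with a median of 0.25, 0 were called (1 with the block), while 6 were higher and 0 lower at unadjusted p, and of 24 amino acid response genes 0 were called (1 with the block; 1 and 4 at unadjusted p). Gapdh gave -0.23 ± 0.13 (adjusted p = 0.397) and Actb 0.30 ± 0.12 (adjusted p = 0.212).

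Among genes in no list, those named here were chosen after their values were seen. Tcim, a regulator of Wnt signalling, went from 9.04 and 9.14 to 12.32 and 12.10 (3.11 ± 0.13, adjusted p = 2.39e-05). Noct, nocturnin, a phosphatase linked to the clock, went from 10.00 and 10.16 to 12.29 and 12.45 (2.29 ± 0.18, adjusted p = 0.00056) and Hilpda, a lipid droplet protein, from 12.03 and 12.31 to 14.29 and 14.53 (2.25 ± 0.17, adjusted p = 0.00056). Rcan1, an inhibitor of calcineurin, rose by 2.03 ± 0.13, the homeobox gene Irx3 by 2.15 ± 0.20, and Hs3st1, which sulphates heparan sulphate, by 2.13 ± 0.26. Hpx, the haem-binding plasma protein hemopexin, rose by 2.26 ± 0.20. All 7 kept their calls under every alternative.

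Other rises and falls outside the lists concerned chromatin and RNA. The histone demethylase gene Kdm6b went from 9.51 and 9.87 to 11.83 and 11.18 (1.81 ± 0.24, adjusted p = 0.00725) and Dot1l, an H3 methyltransferase gene, from 6.64 and 7.02 to 8.60 and 8.13 (1.53 ± 0.19, adjusted p = 0.00629). Igf2bp1, an mRNA-stabilising protein of fetal tissues, went from 9.41 and 9.28 to 7.94 and 8.33 (-1.21 ± 0.17, adjusted p = 0.00874). The RNA-binding gene Mex3a gave -0.98 ± 0.14 and the Polycomb gene Cbx2, undetected at 1 h, was at least 2.19-fold lower (adjusted p = 0.0226). Without control replicate a the calls of these 5 genes ended (adjusted p = 0.0552 to 0.102), as did those of Mex3a and Cbx2 without HGF 1 h replicate b (0.0695 and 0.121) and that of Cbx2 without HGF 1 h replicate a (0.0834) and in the 4 arrays alone (0.0518).

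Of the genes described, 88 were undetected on both control arrays and 67 on both 1 h arrays. Of the former 21 were called higher, with bounds from 1.17-fold (Col11a2) to 145-fold (Egr2), and of the latter 15 were called lower, with bounds from 1.17-fold (AA986860) to 2.72-fold (Pde4b). The 2 groups of called genes had genomic spans with a median of 14.44 kb for the rises and 15.00 kb for the falls, against 20.99 kb over all genes described; this was not tested.

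The later groups share the control arrays with this comparison, so their values are set beside those at 1 h, and the differences between 6 h and 1 h come from the same fit. Fosb read 6.48 and 6.37 at 6 h and 5.79 and 5.97 at 24 h, and 6 h minus 1 h was -7.96 ± 0.30 on the log2 scale (adjusted p = 3.6e-05). Egr2 was lower too (7.55 and 7.40 at 6 h), still at least 3.01-fold above control at that time. Dnajb1 read 12.03 and 12.04 at 6 h, the control level. Edn1 read 9.35 and 9.00 at 6 h, 3.29 above 1 h (adjusted p = 0.000919), and Zfp94 8.45 and 7.87, 1.49 above 1 h (adjusted p = 0.00301).

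Mmp3 and Mmp10, in contrast, moved further in the direction they had taken at 1 h. Mmp3 read 12.71 and 13.24 at 6 h and was 2.35 ± 0.20 higher than at 1 h (adjusted p = 0.000919), and Mmp10 read 11.50 and 11.70 and was 2.28 ± 0.28 higher (adjusted p = 0.00262). Timp1 and the cytokine gene Il24 were not called at 1 h. Timp1 read 13.30 and 13.59 at 6 h, 1.88 above 1 h (adjusted p = 0.000596), and Il24 went from 6.31 and 6.15 at 1 h to 11.75 and 11.68. For Mmp13 (1.23, adjusted p = 0.256), Fosl1 (-0.53, adjusted p = 0.128) and Aspm (-0.58, adjusted p = 0.0805) the difference between 6 h and 1 h was not called. Ttk was undetected on both 6 h arrays (5.77 and 5.20), and its difference from 1 h was not called (-0.40, adjusted p = 0.225). At 24 h Fosb, Egr2, Mmp3, Edn1 and Aspm were not called against control. Of these, Mmp3 read 6.12 and 5.90 at 24 h against 7.95 and 7.83 in control (-1.88, limma adjusted p = 0.0816).

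**Figure D5:**
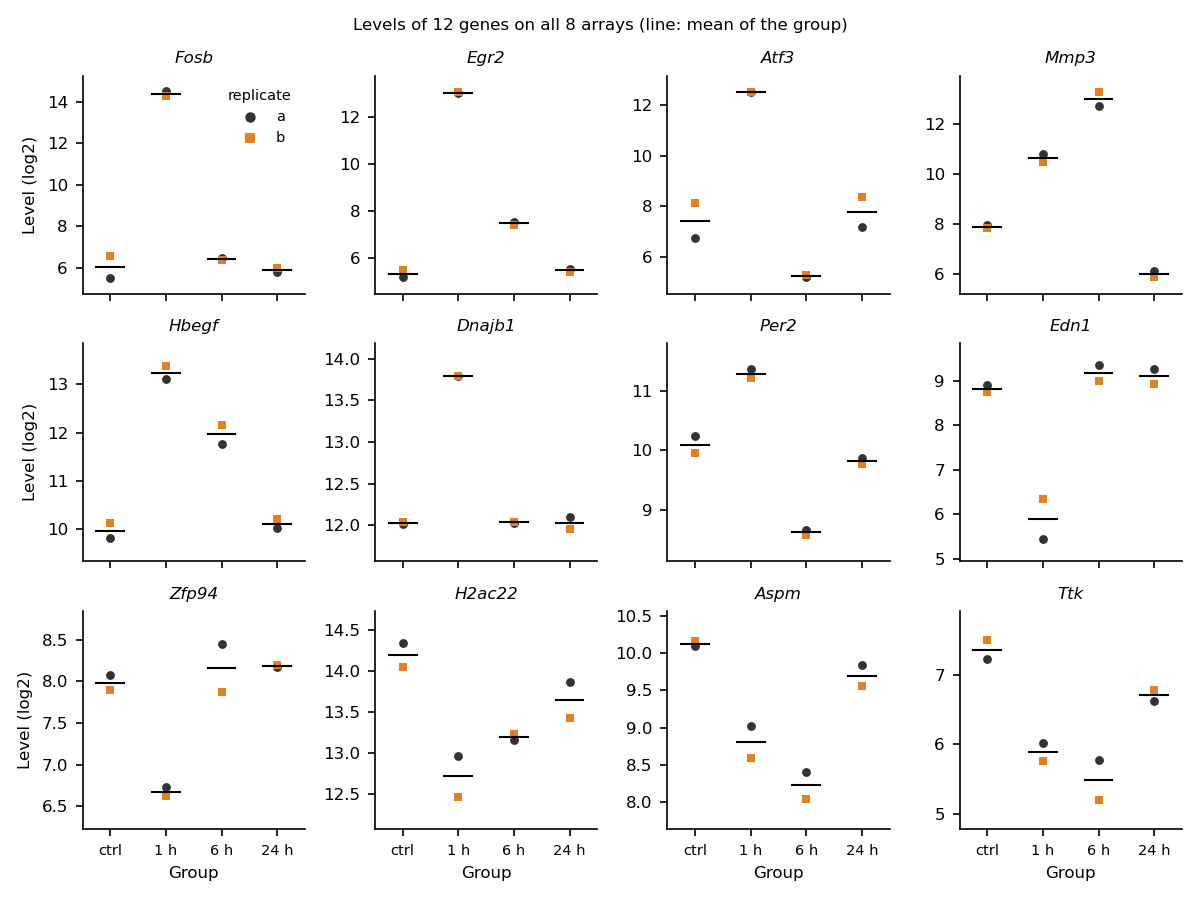
Log2 normalized signal of 12 genes on all 8 arrays, by group, with circles for replicate a, squares for replicate b and a line at the group mean; each panel has its own vertical scale. Fosb, Egr2, Atf3, Hbegf, Dnajb1 and Per2 peak at 1 h, Mmp3 at 6 h, and Edn1 and Zfp94 are lowest at 1 h.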

How the data were processed

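RNA of MLP-29 cells was measured on 8 bead arrays, 4 of which are compared here. The deposited raw table holds a linear intensity per probe, neither background subtracted nor normalized, and a detection p-value that the authors exported with it. The authors' second deposited table holds normalized intensity with array medians of 129.8 or 129.9 and the rank order of the raw arrays (Spearman correlation 1). Their method of normalization is, in the sources used here, not given. GenomeStudio 1.9.0 is named in the submitters' processing notes.

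In limma 3.58.1 (R 4.3.3) the deposited intensity was corrected by normexp, with parameters from the detection p and an offset of 16, then quantile normalized and taken to log2, so that changes of dim genes are understated. Probes were named from the platform annotation (23978 with 1 symbol, 1719 with none). A probe was kept if detected on both arrays of at least 1 group, and a gene was read by its brightest probe. Groups were compared with lmFit and eBayes over all 8 arrays, with Benjamini-Hochberg adjustment over 8183 genes, and the fit was tested on simulated data. The number of arrays limits the precision.

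The labels say that the time course was repeated, which implies, without stating it, that arrays of 1 letter come from 1 repeat. The differences of a minus b correlated between all 6 pairs of groups, at 0.194 to 0.443, so a blocked fit was run as well, and its values are printed where calls or counts (by over 1.5 times) differ. Alternatives were median scaling, the authors' table, no background correction, an offset of 50, no filter, a filter on the 2 compared groups, the mean of a gene's probes, the 4 arrays alone and leaving out each array.

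The members and gene lists were chosen with earlier results of these data known. Named genes are the 25 steepest rises and falls whose arrays did not overlap, in each list up to 8 called members with the smallest adjusted p, and a fixed set of 24, some left out for length. Chosen after their values were seen were H1f2, H4c6, H2ac24, Csf3, Col11a2, AA986860, the uncalled genes outside the fixed set that are given with values, and those said to be so in the text. Of the fixed set Ccnb1 had no named probe. In 19 lists a member had only a bound, and setting it to that bound moved 0 medians by over 0.05. Promoters are from RefSeq (GRCm38.p6). A list of genes is not reported here.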

Additional observations from a re-analysis of the deposited data

Results flagged for a closer look

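Of 183 called genes looked at singly, 6 differed from control with opposite signs at 1 h and at 6 h, both past the threshold in limma. The remaining called genes were not searched for this. The difference between the times was tested in the same fit, with the control arrays shared. Atf3, the stress-inducible repressor, was higher than control at 1 h and undetected at 6 h, with a log2 difference of -7.27 for 6 h minus 1 h (adjusted p = 0.000305). The clock genes Per1 (-2.69, adjusted p = 0.000753), Per2 (-2.67, adjusted p = 0.000134) and Nr1d1 (-1.61, adjusted p = 0.000664) were above both control arrays at 1 h and below both at 6 h. Tob1, the deadenylase adaptor, gave -1.94 (adjusted p = 0.000229) and Bcl3, the nuclear IkB protein, -1.62 (adjusted p = 0.00206). The call of Per1 at 1 h ended without control replicate a (adjusted p = 0.0785) or HGF 1 h replicate b (0.0655), and that of Bcl3 at 1 h without control replicate a (0.0919), control replicate b (0.106) or HGF 1 h replicate a (0.0981), with median scaling (0.116) and with the 4 compared arrays alone (0.0714).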

How the results depend on the processing

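The fit with a replicate block called 366 genes higher and 363 lower, against 213 and 177 without the block, and ended 0 of those calls. With the 4 compared arrays alone 135 were higher and 66 lower. Leaving out each of the 8 arrays in turn gave 73 to 185 higher and 6 to 139 lower, with the lowest counts without control replicate a, where the lone control array is assumed to vary like the other groups. Median scaling gave 142 and 126 and moved the median of all genes to -0.15. The authors' table, no background correction, an offset of 50, no filter, the filter on the 2 compared groups and the mean of a gene's probes gave between 187 and 283 higher and between 135 and 235 lower. Of 183 called genes looked at singly, 58 kept their call under every alternative, 118 under every one that left out no array, and 0 changed sign. Within the 250 bases before the start alone, the CArG box stood in 3.69% of the promoters of genes that rose. It stood in 2.3% of those that fell and in 1.23% of all described. For the cAMP response element the shares were 5.33%, 1.72% and 2.54% in the same order. With 2 arrays per group and 4 residual degrees of freedom, small changes are not resolved, and genes near background have only bounds.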

Other observations

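The 4 genes given next stood in no list and were picked after their values were seen, so that nothing follows from them for other genes of their kind. Ogg1, a glycosylase that removes oxidised guanine, read 6.89 and 6.76 in control and 6.07 and 5.86 at 1 h (-0.86 ± 0.12, limma adjusted p = 0.00997). The mismatch repair gene Pms2 gave -0.78 ± 0.14, the helicase gene Recql4 -0.79 ± 0.15, and Cdca5, which encodes the cohesion factor sororin, -0.75 ± 0.15. The 1 h arrays lay below both controls in each, as in every gene called lower. All 4 calls ended without control replicate a (adjusted p = 0.0785 to 0.165) or HGF 1 h replicate b (0.0734 to 0.173), and those of Pms2, Recql4 and Cdca5 also without HGF 1 h replicate a (0.0998 to 0.115) and with the 4 compared arrays alone (0.0503 to 0.0951). Without control replicate b those of Pms2 (0.0682) and Recql4 (0.0665) ended, without a 24 h array those of Pms2 (0.0509) and Cdca5 (0.06), and without a 6 h array that of Cdca5 (0.0563). Median scaling ended the call of Cdca5 (0.0632), and the mean of its probes that of Recql4 (0.195).

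Muc1, a mucin of duct epithelium and 1 of the 7 progenitor and duct markers detected on all 4 arrays, was called higher, from 11.85 and 11.67 to 12.65 and 12.54 (0.83 ± 0.13, adjusted p = 0.0126). Sox9 read 8.23 and 7.41 in control and 9.26 and 8.82 at 1 h (1.22 ± 0.32, adjusted p = 0.0815, and 0.00684 with the replicate block, which called 2 of the 7 higher). Krt19 gave -0.01 ± 0.20. The Muc1 call ended without control replicate a (adjusted p = 0.058), control replicate b (0.0597), HGF 1 h replicate a (0.0793) or HGF 1 h replicate b (0.0632), with median scaling (0.104) and with the 4 compared arrays alone (0.0503).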
